A study of Mus musculus with 71 samples.

Results

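The 8 genes described here are Otx2, Zic2, Foxd3, Pou3f1, Fgf5, Sall1, Sall2 and Sall4, a set of genes linked to the formative and primed states of pluripotency. They were chosen by gene name, with no measured value in the rule but with earlier results of these data known. All 8 were among the 21527 genes in the files. Messenger RNA was followed in male mouse embryonic stem cells (mESCs) kept in 2i/LIF, a medium used to hold them in the naive ground state. No step to move the cells towards later states is described, but whether all of them were naive was not tested. RNA was labelled with 100 µM 4-thiouridine (s4U) for 24 h, and the label was then chased with a 100-fold excess of uridine. The cells received STM2457, a small molecule that blocks the m6A methyltransferase Mettl3, or DMSO alone from 6 h ahead of the chase until collection, which followed after 0, 1, 1.5, 2.3, 3.5, 5.3, 8 and 12 h (time points from the labels, their hours from the study's methods). Each of these 16 groups held 4 libraries, except STM2457 at 3.5 h, which held 3, and each treatment had 4 more libraries from cells that never saw s4U, whose time of collection the labels do not give. The labels give no difference in genotype between the 71 libraries, so the groups differed in treatment, labelling and time. The libraries were made from the 3′ ends of transcripts (QuantSeq), with a median of 5465434 counted reads in DMSO (4539726 to 7368244, 36 libraries) and of 5765090 in STM2457 (4704543 to 6804970, 35 libraries).

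Naive cells resemble the epiblast before implantation. On the way to lineage commitment they pass through a formative state, in which the enhancers used by Oct4 change, and then reach the primed state of the epiblast after implantation. Otx2 is a homeodomain factor that directs Oct4 to formative enhancers, Pou3f1 (Oct6) is a POU factor of the epiblast and early neural lineage, Zic2 is a zinc finger factor that binds enhancers, and Foxd3 is a forkhead factor that opens them. Fgf5 is a secreted growth factor rather than a transcription factor, and it is the classical marker of the epiblast after implantation. Sall1, Sall2 and Sall4 are spalt-like zinc finger factors, and Sall4 and Sall1 are also expressed in naive cells. The m6A mark is laid on mRNA by Mettl3 and its partners, most often around the stop codon and in the 3′ UTR, and mRNAs that carry it tend to be degraded faster.

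The methyltransferase favours the motif GGAC followed by A, C or T. The match nearest to the end of the stop codon is shown for each of the 8 genes, because this is the region where the mark is most common. The sequences were read from the GENCODE transcripts of GRCm38 (the longest protein-coding transcript of each gene), on the transcript strand, with 10 bases on either side and the motif in capitals.
Otx2: tggattataaGGACCaaactgcctc
Pou3f1: gtgaccctgcGGACTgggttccccg
Zic2: gggggcagcgGGACAaccggaggcc
Foxd3: gccgctgtctGGACAgttcctgcag
Fgf5: tcggggcgccGGACCggcagcctgt
Sall1: gcttcgtggaGGACAgcaaagagat
Sall2: tctagggccgGGACCttcttgagaa
Sall4: cggtgagtgtGGACCccgcctcctg

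The stretches lie in the coding sequence for 6 of the 8 genes. They are at chr14:48658782-48658806 (minus strand) for Otx2, chr14:122479178-122479202 (plus strand) for Zic2, chr4:99657947-99657971 (plus strand) for Foxd3, chr5:98254655-98254679 (plus strand) for Fgf5, chr8:89028391-89028415 (minus strand) for Sall1 and chr2:168750297-168750321 (minus strand) for Sall4. Those of Pou3f1, at chr4:124659053-124659077 (plus strand), and Sall2, at chr14:52312294-52312318 (minus strand), lie in the 3′ UTR. The motif of Pou3f1 is 7 bases from the end of the stop codon, that of Sall1 27, Zic2 55, Foxd3 77, Otx2 90, Sall4 282, Sall2 414 and Fgf5 541.

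Matches to this motif, in its form GGACA, its form GGACC or its form GGACT (searched on the transcript strand only, since the mark is on RNA) were found in all 8 transcripts, but 99.4% of the 12216 tested genes with a protein-coding transcript hold at least 1. Foxd3 was the densest of the 8, with 13 matches in 2324 bases (5.59 per kb, percentile 85.7 of all genes), and Otx2 followed with 12 matches (4.63 per kb). Sall4 held 19 matches, of which 12 were in the coding sequence and 6 in the 3′ UTR, and its 3.75 per kb lay next to the median of all genes, 3.67. The densities of Pou3f1 (13 matches, 3.38 per kb), Sall1 (16 matches, 3.04 per kb), Zic2 (7 matches, 2.87 per kb) and Sall2 (14 matches, 2.72 per kb) were below that median. Fgf5 was the sparsest, with 4 matches (1.60 per kb, percentile 6.37). Zic2 held all 7 of its matches in the coding sequence and none in its 3′ UTR, whereas 83.0% of genes hold a match in the 3′ UTR. A match of letters is not a methylated site, and methylation was not measured in these libraries.

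The 8 genes spanned a wide range of levels, with Sall4 far above the rest. On the scale of counts per 1000000 (CPM) per kb of the 3′ window in which reads were counted, Sall4 stood at 1039, followed by Sall2 at 45.2, Sall1 at 38.7, Foxd3 at 24.0, Otx2 at 20.1, Pou3f1 at 16.1, Fgf5 at 3.00 and Zic2 at 2.23. Without division by window length, the means over all 71 libraries were 260.8 CPM ± 44.4 (SD) for Sall4, 19.4 ± 5.24 for Sall1, 11.6 ± 3.63 for Sall2, 6.01 ± 2.93 for Foxd3, 5.05 ± 3.37 for Otx2, 4.06 ± 2.41 for Pou3f1, 0.750 ± 0.823 for Fgf5 and 0.557 ± 0.557 for Zic2. Sall1 and Sall2 exchanged places between the scales, since the window of Sall1 is 502 bases long and that of Sall2 is 256. The SDs of Foxd3, Otx2 and Pou3f1 overlapped, as did those of Fgf5 and Zic2 and those of Sall1 and Sall2. These SDs also hold the changes with treatment and time, so their overlap does not decide the order. Without division by window length, the mean of Sall1 was above that of Sall2 in every group of libraries. The order among Foxd3, Otx2 and Pou3f1, and that of Fgf5 and Zic2, changed between groups.

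Sall4 had 808 to 2221 reads per library and ranked at percentile 97.0 of all genes by CPM, so its values carry little counting error. Sall1 had 41 to 215 reads per library, Sall2 26 to 119, Foxd3 7 to 84, Otx2 2 to 97 and Pou3f1 0 to 63. Fgf5 (median 3 reads, 0 in 17 of the 71 libraries) and Zic2 (median 3 reads, 0 in 24 libraries) were close to the limit of detection. The libraries at 0 were split evenly between the treatments, with 8 in DMSO and 9 in STM2457 for Fgf5 and 12 in each for Zic2. Zic2 fell below the minimum count of the edgeR filter, so 7 of the 8 genes were tested, and its level is given as a description only.

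Counting at the 3′ end assigns each read to a gene by position, and the sources used here do not state whether strand was used. Otx2 (antisense Otx2os1), Pou3f1 (antisense Gm2164) and Sall4 (Gm14261 on the opposite strand) each overlap a gene of the other strand, and Otx2 and Foxd3 also overlap Gm49154 and the miRNA gene Gm23366 on their own strand. None of these 5 overlaps touches the last 500 bases of the gene. Reads that also matched elsewhere made up 1.18% for Sall1 and less for the others.

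**Figure D1:**
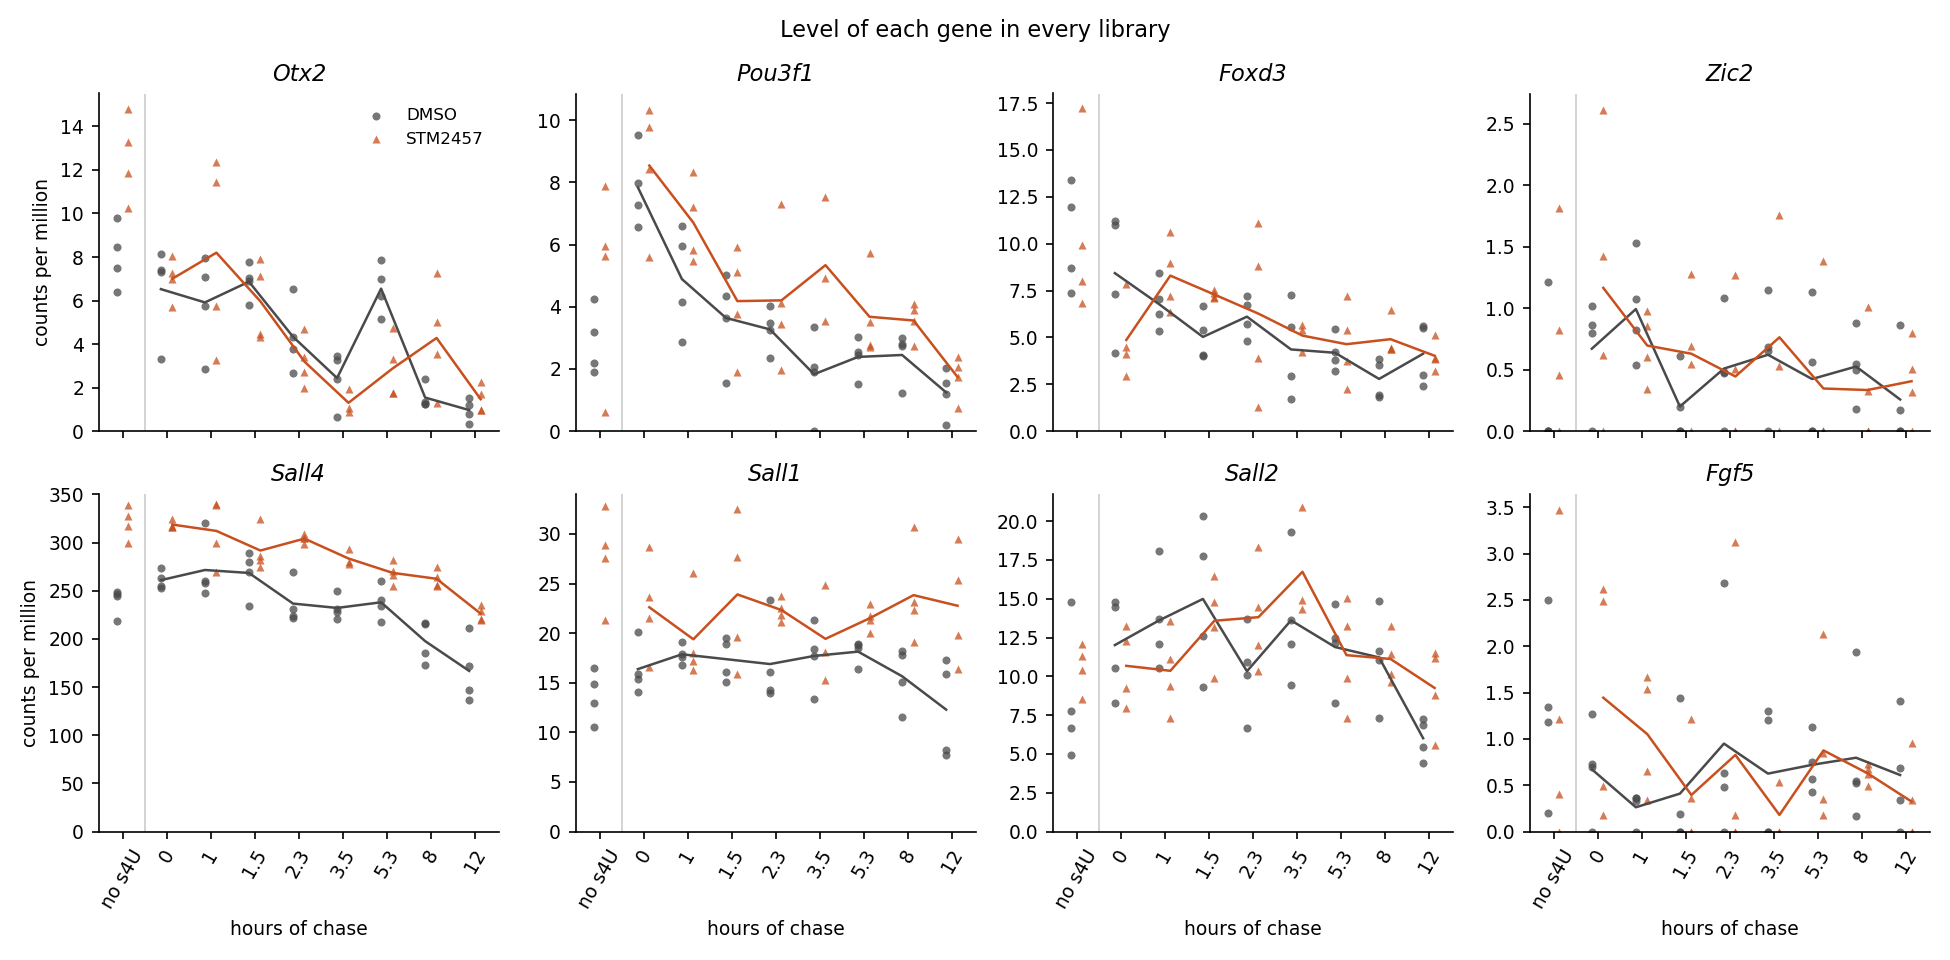
CPM (counts per 1000000, y axis, linear, a separate scale for each gene) of the 8 genes against hours of chase, with the libraries without s4U at the left. Each point is 1 library (grey circles, DMSO; orange triangles, STM2457) and lines join the group means. Otx2 and Pou3f1 fall over the chase in both treatments, the STM2457 points of Sall4 lie mostly above the DMSO points, and Zic2 and Fgf5 stay near 0.

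The first question was how the level of each gene moved over the chase itself, within a treatment. In DMSO, 4 of the 7 tested genes were lower at 12 h than at 0 h (Otx2, Pou3f1, Sall2 and Sall4), none was higher, and over all 12659 genes tested 13.1% changed in either direction (edgeR's quasi-likelihood test, Benjamini-Hochberg adjusted p under 0.01, as for all counts of calls below). In STM2457, Otx2, Pou3f1 and Sall4 were lower, 3 of 7, where 4.72% of all genes changed. In bulk samples, fewer cells expressing a gene and less RNA of it per cell cannot be told apart. Time in culture, time after the removal of s4U and time on STM2457 or DMSO ran together, so they cannot be told apart either.

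Of the genes that passed, Otx2 and Pou3f1 had the largest changes on the log2 scale, with Otx2 ahead in DMSO and Pou3f1 in STM2457 by less than their errors. At 0 h in DMSO the 4 libraries held 3.29, 7.30, 8.12 and 7.38 CPM of Otx2, and at 12 h they held 0.806, 0.345, 1.54 and 1.19 CPM, from 2 to 9 reads each. Every 12 h library was below every 0 h library. How many of all genes had groups fully apart was not counted, for this or any comparison below. The change was -2.72 on the log2 scale (SE 0.47, 95% interval -3.65 to -1.79, edgeR adjusted p = 6.79e-06).

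In STM2457 the same gene went from 7.28, 5.70, 8.03 and 7.00 CPM at 0 h to 0.958, 0.957, 2.27 and 1.69 CPM at 12 h, again with no overlap. This was a change of -2.23 (SE 0.44, edgeR adjusted p = 0.000237). The path between the ends was uneven. In DMSO the mean stayed at 6.87 CPM ± 0.816 (SD, n = 4) at 1.5 h, dropped to 2.44 ± 1.27 at 3.5 h, stood at 6.55 ± 1.15 at 5.3 h and fell again to 1.54 ± 0.561 at 8 h.

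Pou3f1 moved in the same direction and by a similar amount. In DMSO it held 7.28, 9.52, 7.98 and 6.58 CPM at 0 h against 0.201, 1.55, 1.196 and 2.03 CPM at 12 h. In STM2457 it held 8.44, 10.3, 5.58 and 9.80 CPM at 0 h against 1.76, 2.07, 0.755 and 2.37 CPM at 12 h. The groups did not overlap in either treatment. The log2 changes were -2.61 (SE 0.53, edgeR adjusted p = 0.000121) in DMSO and -2.29 (SE 0.51, edgeR adjusted p = 0.00124) in STM2457, and the second lost its call when STM2457 replicate 2 (adjusted p = 0.0201) or replicate 3 (adjusted p = 0.0125) was left out. Much of the drop in DMSO came early, since the mean was 4.89 CPM ± 1.70 (SD, n = 4) at 1 h, 3.27 ± 0.697 at 2.3 h and 1.83 ± 1.38 at 3.5 h. The DMSO libraries without s4U held 1.91, 3.19, 2.20 and 4.24 CPM, all below the 0 h libraries. The rise from unlabelled to 0 h cells, 1.45 on the log2 scale, did not pass the test (edgeR adjusted p = 0.144).

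Sall4, the most abundant of the 8, fell less and with a small error. Its DMSO libraries held 254.9, 273.3, 263.2 and 252.5 CPM at 0 h and 211.4, 146.7, 172.2 and 136.7 CPM at 12 h. Its STM2457 libraries held 316.5, 316.2, 324.9 and 317.0 CPM at 0 h and 220.7, 235.2, 220.1 and 229.0 CPM at 12 h. Both pairs of groups were fully apart, and the highest value at 12 h was 211.4 CPM in DMSO and 235.2 CPM in STM2457. The log2 changes were -0.65 in DMSO (SE 0.09, edgeR adjusted p = 2.45e-07) and -0.49 in STM2457 (SE 0.09, edgeR adjusted p = 0.000144).

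The other spalt-like genes and Foxd3 gave less clear changes. Sall2 held 10.6, 14.5, 8.27 and 14.8 CPM at 0 h and 5.44, 6.90, 4.44 and 7.28 CPM at 12 h in DMSO. The groups did not overlap, and the log2 change of -0.99 (SE 0.29) just passed the test (edgeR adjusted p = 0.00883). It lost the call in 10 of 16 alternatives, with adjusted p from 0.000755 to 0.0344 over all of them, among them leaving out any of the 4 DMSO replicates or STM2457 replicate 1 or 2. In STM2457 the change of Sall2 was -0.20 (SE 0.28).

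Foxd3 held 4.16, 7.30, 11.02 and 11.2 CPM at 0 h and 3.02, 5.52, 2.39 and 5.58 CPM at 12 h in DMSO, with overlap. The log2 change of -1.02 (SE 0.39, edgeR adjusted p = 0.0475) did not pass. A straight line through all 8 time points, fitted as an alternative, gave -1.10 over the chase and did pass (edgeR adjusted p = 0.00493), where 25.9% of all genes did. Sall1 gave log2 changes of -0.41 (SE 0.22) in DMSO and 0.01 (SE 0.21) in STM2457 that did not pass. Fgf5 gave -0.16 and -2.10 with intervals that ran from -2.63 to 2.31 and from -4.63 to 0.44, and its depth could not show a change of either sign. Zic2 stood at 0.671 CPM ± 0.456 (SD, n = 4) at 0 h and 0.258 ± 0.411 at 12 h in DMSO, and at 1.17 ± 1.13 and 0.406 ± 0.335 in STM2457.

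Whether the chase moved a gene differently in the 2 treatments was tested directly, as the difference between the 12 h against 0 h changes. None of the 7 genes passed in edgeR, none had an unadjusted p under 0.05, DESeq2 called none, and 1.11% of all genes passed in edgeR. The differences were 0.49 for Otx2 (95% interval -0.78 to 1.75), 0.32 for Pou3f1 (-1.10 to 1.75), 0.75 for Foxd3 (-0.35 to 1.86), 0.42 for Sall1 (-0.19 to 1.03), 0.79 for Sall2 (-0.02 to 1.60) and 0.15 for Sall4 (-0.11 to 0.42), all on the log2 scale. The interval for Fgf5 was -5.48 to 1.61. The intervals leave room for sizeable differences, apart from that of Sall4.

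The labelling itself was looked at by setting 0 h against the libraries without s4U. None of the 7 genes passed in DMSO, where 0.513% of all genes did, or in STM2457, where 0.521% did. At an unadjusted p under 0.05 there was 1 of the 7 in DMSO and 2 of the 7 in STM2457, and DESeq2 called none. For all genes the share at that unadjusted p was not counted.

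The central question was what blocking Mettl3 did to these genes. Averaged over the 8 chase time points, Sall4 and Sall1 were higher in STM2457 than in DMSO, none of the 7 tested genes was lower, and the other 5 did not pass the test. Over all genes, 26.5% passed in this comparison, so 2 of 7 is close to the background. The median log2 fold change was 0.15 over the 7 genes and -0.01 over all genes. TMM scaling places the bulk of genes near 0, so all fold changes here, also those over the chase, are relative to that bulk. A shift shared by most genes would not show in them. For its RNA-seq, the paper scaled to genes without m6A sites, after a comparison with spike-ins.

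Sall4 was higher by 0.29 on the log2 scale (SE 0.03, 95% interval 0.22 to 0.35, edgeR adjusted p = 9.22e-11). Its group mean was higher in STM2457 at 8 of 8 time points, with log2 ratios from 0.12 to 0.44, and an exact two-sided sign-flip test over the time points gave p = 0.00781, the smallest that 8 time points can give. This test was run on the 8 genes of the set only. The share of all genes at 8 of 8 was not counted, here or for the genes below. At 0 h the DMSO libraries (254.9, 273.3, 263.2 and 252.5 CPM) were all below the STM2457 libraries (316.5, 316.2, 324.9 and 317.0 CPM). That difference, 0.29 (SE 0.09), did not pass the test at this single time (edgeR adjusted p = 0.0687). The 2 treatments were also fully apart at 2.3, 3.5, 8 and 12 h, with no share of all genes to set beside this.

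The difference of Sall4 passed at 8 h and at 12 h. At 8 h the DMSO libraries held 217.0, 215.4, 185.4 and 172.9 CPM against 255.9, 264.1, 254.4 and 275.1 CPM in STM2457, a log2 fold change of 0.41 (edgeR adjusted p = 0.00289). At 12 h the values listed above for the chase gave 0.44 (edgeR adjusted p = 0.000570). Cells that never received s4U showed it as well, with 218.3, 244.2, 248.5 and 246.6 CPM in DMSO and 317.3, 338.7, 327.5 and 299.8 CPM in STM2457, a log2 fold change of 0.42 (edgeR adjusted p = 0.00220). This call without s4U was lost when STM2457 replicate 2 was left out or when only the 8 libraries compared entered the fit. Further fits listed below called fewer genes of the set without s4U and at 12 h, so Sall4 or Sall1 lost its call in each.

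Sall1 was higher by 0.41 on average (SE 0.08, 95% interval 0.26 to 0.57, edgeR adjusted p = 1.26e-05) and at 8 of 8 time points (exact sign-flip p = 0.00781). In DMSO its group means ran from 12.3 CPM ± 4.98 (SD, n = 4) at 12 h to 18.1 ± 1.198 at 5.3 h, and in STM2457 from 19.4 ± 4.496 at 1 h to 23.9 ± 7.58 at 1.5 h. At 12 h it held 8.26, 7.76, 15.9 and 17.3 CPM in DMSO and 19.8, 25.4, 29.5 and 16.4 CPM in STM2457, so that the lowest STM2457 library lay below the highest DMSO library. The log2 fold change there was 0.88 (SE 0.22, edgeR adjusted p = 0.00372). Some fits listed below called fewer genes of the set at 12 h, so Sall1 or Sall4 lost its call in them. At 5.3 h and 8 h the treatments did not overlap, but neither time passed the test (adjusted p = 0.520 and 0.1003, edgeR). In cells without s4U the groups were fully apart, with 12.9, 16.5, 14.9 and 10.5 CPM in DMSO and 21.3, 32.8, 27.5 and 28.9 CPM in STM2457. That difference was 1.01 (SE 0.22, edgeR adjusted p = 0.00161), and its call was also lost without STM2457 replicate 2 and with only the 8 libraries compared. The further fits without s4U in which Sall4 or Sall1 lost its call bear on this call as well.

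Pou3f1 was just short of the threshold. Its average difference was 0.54 (SE 0.18, 95% interval 0.18 to 0.89, edgeR adjusted p = 0.0131), positive at 8 of 8 time points (exact sign-flip p = 0.00781). It passed in 5 of 17 alternatives, with p from 0.00472 to 0.0734 over all of them. Among these 5 were the fit without DMSO replicate 4 (edgeR adjusted p = 0.00822) and the sign-flip test, whose p is not adjusted over genes. The groups were apart only at 3.5 h, where the DMSO libraries held 1.92, 2.06, 0 and 3.35 CPM and the 3 STM2457 libraries held 4.92, 3.55 and 7.54 CPM, a difference of 1.55 that did not pass at that time (SE 0.54, edgeR adjusted p = 0.120).

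The remaining genes gave differences near 0 on average. The log2 fold change was 0.15 for Foxd3 (95% interval -0.13 to 0.43), 0.07 for Sall2 (-0.13 to 0.27) and -0.01 for Otx2 (-0.34 to 0.32). The interval for Fgf5, -2.96 to 2.99, was too wide to be read. The values of Foxd3 lay on both sides of 0 at single time points. At 0 h its STM2457 libraries held 4.14, 7.84, 2.97 and 4.51 CPM against 4.16, 7.30, 11.02 and 11.2 CPM in DMSO, and at 8 h all 4 STM2457 libraries (4.36 to 6.46 CPM) were above the DMSO libraries (1.82 to 3.85 CPM). Neither passed the test (log2 fold changes of -0.80 with adjusted p = 0.284 and 0.81 with adjusted p = 0.308, edgeR).

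By single time point, none of the 7 genes passed at 0 h (1.68% of all genes), 1 h (1.53%), 1.5 h (8.18%), 2.3 h (1.61%), 3.5 h (1.30%) or 5.3 h (4.45%). Sall4 alone passed at 8 h (2.34%), and Sall4 and Sall1 passed at 12 h (5.41%) and in cells without s4U (2.58%). From 0 to 5.3 h, the 6 time points with no call in edgeR, between 1 and 3 of the 7 genes had an unadjusted p under 0.05 at each. The share of all genes at that unadjusted p was not counted, so these numbers have no background to be read against. DESeq2 called none of the genes at 0 h, and 2 over the times from 1 to 8 h against 1 in edgeR. The call of Sall4 at 8 h was lost without DMSO replicate 3 or 4 or STM2457 replicate 1 or 2. At 12 h the count of genes called was 1 in place of 2 without DMSO replicate 1 or 2 or STM2457 replicate 2 or 3. In cells without s4U the count was 1 without DMSO replicate 4 or STM2457 replicate 1 or 3, and 0 in edgeR without STM2457 replicate 2.

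**Figure D2:**
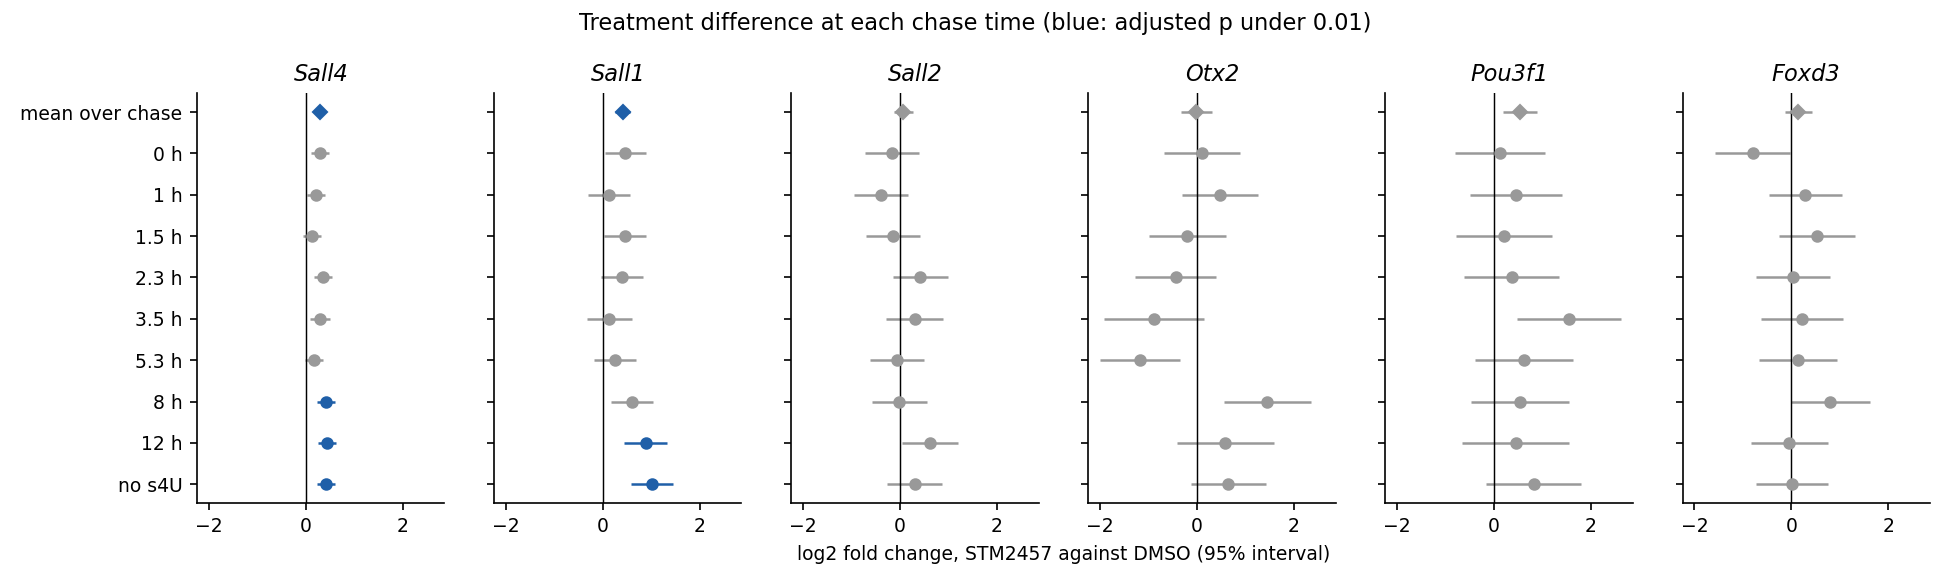
Log2 fold change of STM2457 against DMSO (x axis) with its 95% interval for 6 genes, averaged over the chase (diamonds), at each hour of chase and without s4U (circles). Blue marks an edgeR adjusted p under 0.01, reached by Sall4 and Sall1 only. The intervals of Sall4 are the narrowest, and those of Otx2 lie on opposite sides of 0 at 5.3 and 8 h.

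The treatment difference of Otx2 lay on both sides of 0 during the chase, with an average near 0. At 5.3 h the DMSO libraries held 6.22, 5.14, 7.85 and 6.98 CPM and the STM2457 libraries 3.30, 1.74, 1.74 and 4.74 CPM. At 8 h the DMSO libraries held 1.24, 2.38, 1.24 and 1.32 CPM and the STM2457 libraries 5.00, 7.27, 3.54 and 1.31 CPM. The groups were fully apart at 5.3 h, with STM2457 lower, and overlapped at 8 h, where 3 of the 4 STM2457 libraries were above every DMSO library. The log2 fold changes were -1.18 at 5.3 h (SE 0.42, edgeR adjusted p = 0.0517) and 1.45 at 8 h (SE 0.45, edgeR adjusted p = 0.0429), and neither passed 0.01. The change between the 2 times, tested after these values had been seen, was 2.63 (SE 0.61, edgeR adjusted p = 0.0361) and did not pass either. In cells without s4U, Otx2 held 7.49, 6.39, 9.81 and 8.48 CPM in DMSO and 11.9, 14.8, 13.3 and 10.3 CPM in STM2457, fully apart but not past the test (log2 fold change 0.64, edgeR adjusted p = 0.362).

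Decay was read from the conversion rate, the share of covered T positions of a gene's window read as C, which s4U raises and the chase lowers. An exponential curve was fitted to the mean rates after the rate without s4U had been subtracted. A half-life was kept where the mean T coverage exceeded 100, the half-life lay between 0.67 and 18 h and the residual standard error was at most 0.3 of the 0 h rate in both treatments. Half-lives passed for 7407 transcripts and for 4 of the 8 genes, Sall4, Sall1, Pou3f1 and Foxd3. Zic2 (mean coverage of 99.0 T in DMSO) and Fgf5 (78.7 in DMSO and 92.1 in STM2457) had too little coverage, Otx2 was too noisy (residual standard error 1.43 in DMSO and 0.445 in STM2457), and Sall2 passed in DMSO (2.53 h) but not in STM2457 (residual standard error 0.399). Without STM2457 replicate 4, Sall2 passed in both treatments (2.53 and 4.57 h).

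Sall4 gave the best-covered curve. Its conversion rate in DMSO was 1.195% ± 0.153 (SD, n = 4) at 0 h, from 1621 conversions at 134190 covered T, and fell to 0.987% ± 0.107 at 1 h, 0.718% ± 0.229 at 3.5 h, 0.137% ± 0.0192 at 5.3 h and 0.0540% ± 0.0226 at 12 h. In STM2457 it fell from 1.30% ± 0.166 at 0 h through 1.02% ± 0.0857 at 1 h, 0.864% ± 0.0876 at 3.5 h (n = 3) and 0.251% ± 0.0811 at 5.3 h to 0.0627% ± 0.0291 at 12 h. By 12 h the rates were back at those of cells without s4U, 0.0803% ± 0.0214 in DMSO and 0.0610% ± 0.0269 in STM2457. The half-lives were 2.97 h in DMSO and 3.29 h in STM2457. From 5.3 h on the measured rates lay below the fitted curve in both treatments, so a single exponential did not describe all of the decay.

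Sall1 decayed faster than most transcripts, with 2.05 h in DMSO (percentile 16.4 of the transcripts with a half-life) and 2.49 h in STM2457 (percentile 21.03), but without DMSO replicate 1 its half-life in DMSO was 3.12 h. Pou3f1 gave 2.82 h and 3.20 h, next to the medians of all transcripts, 3.19 h in DMSO and 3.45 h in STM2457. Its rates rested on few conversions, 107 at 0 h and 18 at 3.5 h over the 4 DMSO libraries. When reads with a conversion were followed in place of the conversion rate, the half-lives of Pou3f1 were 0.858 h and 1.58 h. The conversion rate is a share of all RNA of a gene, so it tracks the loss of labelled RNA only while the level is steady. The level of Pou3f1 in DMSO fell from 7.84 CPM at 0 h to 1.83 CPM at 3.5 h, so 2.82 h is not a firm half-life. Whether the falling level accounts for the gap between the readings was not tested. Without DMSO replicate 1 the half-life of Pou3f1 in DMSO was 3.896 h. Without STM2457 replicate 1 its residual standard error in STM2457 was 0.409, past the limit.

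Foxd3 had one of the shortest half-lives that passed, 0.697 h in DMSO (percentile 0.0945), near the lower limit of 0.67 h. Its rate fell from 1.36% ± 0.250 (SD, n = 4) at 0 h to 0.615% ± 0.470 at 1 h and 0.124% ± 0.248 at 1.5 h, from 76, 22 and 3 conversions. In STM2457 the rate was 1.36% ± 1.16 at 0 h, 0.830% ± 0.538 at 1 h and 1.00% ± 1.22 at 1.5 h, and the half-life was 1.75 h. The SD of the STM2457 rates at 0 h was nearly as large as their mean. Without STM2457 replicate 3 the half-life in STM2457 was 4.45 h with a residual standard error of 0.539, and without DMSO replicate 2 or 4 the half-life in DMSO was 0.540 h or 0.657 h, below the lower limit.

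**Figure D3:**
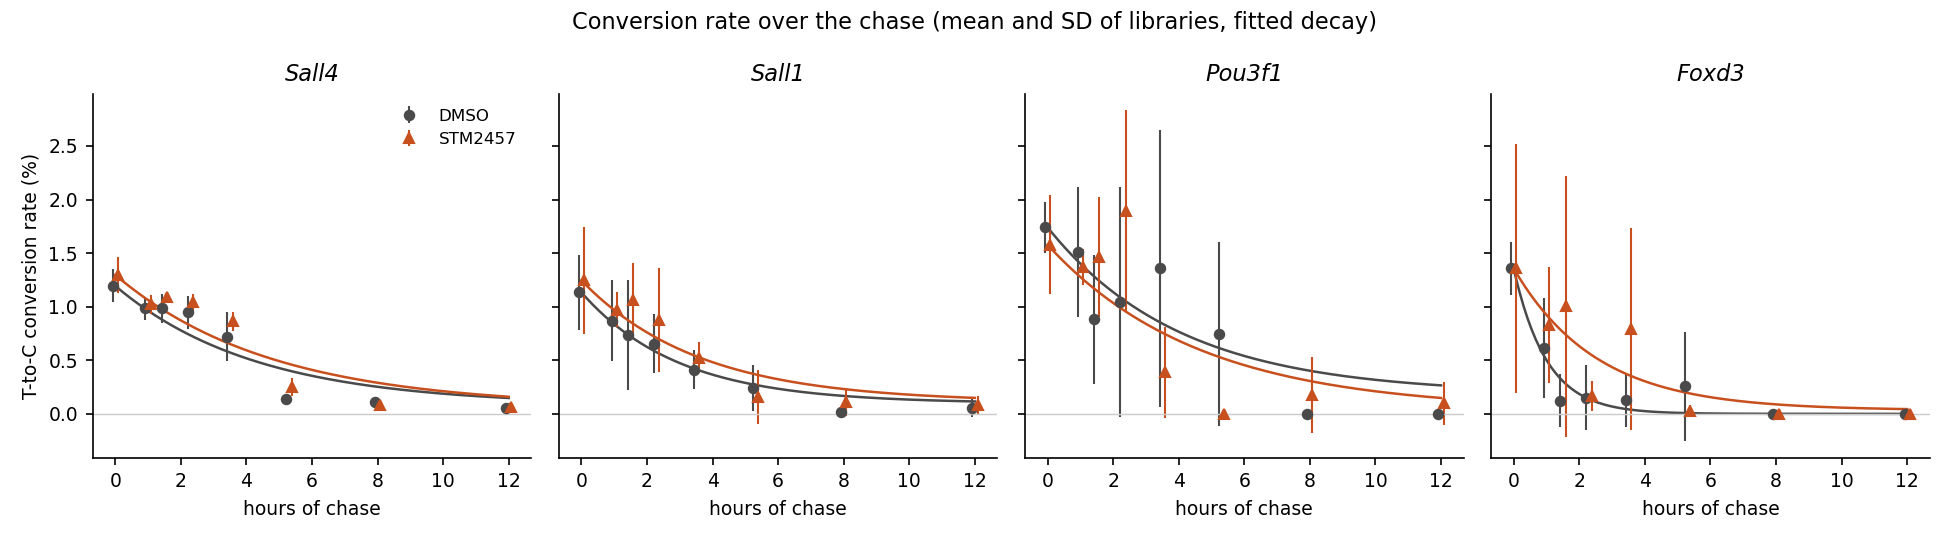
T-to-C conversion rate in percent (y axis) against hours of chase (x axis) for the 4 genes with a half-life in both treatments. Points are means and bars SDs of 4 libraries (3 for STM2457 at 3.5 h), grey circles DMSO and orange triangles STM2457, and curves are the fitted decays. Sall4 has the smallest bars, its points from 5.3 h on lie below the curves, and the bars of Foxd3 in STM2457 span most of the range.

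A test of the difference in half-life needs a half-life from each series of same-numbered libraries, and these lay within the limits in all 8 series for Sall4 and Sall1 only. For Sall4 the DMSO series gave 2.94, 3.10, 2.57 and 3.35 h and the STM2457 series 3.76, 3.11, 2.71 and 3.44 h. The groups overlapped, and a two-sided exact permutation test gave p = 0.371, where the smallest possible was 0.0286. For Sall1 they gave 1.24, 2.19, 2.03 and 3.85 h against 3.5, 1.86, 2.72 and 2.34 h (exact permutation p = 0.571).

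A limma fit over the 5767 transcripts with 8 such series called 0% at an adjusted p under 0.05, 0 of the 2 genes among them. At an unadjusted p under 0.05 there were 406 transcripts and neither gene. The limma log2 differences were 0.12 for Sall4 (95% interval -0.38 to 0.61, adjusted p = 0.946) and 0.24 for Sall1 (-0.56 to 1.05, adjusted p = 0.924), beside a median of 0.05 over these transcripts. The higher levels of Sall4 and Sall1 in STM2457 thus stood beside half-lives whose difference did not pass the test, with intervals that include differences as large as those of their levels.

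The set was placed beside 16 other genes of the formative and primed states and 12 genes of the naive state. These lists were chosen for this work with earlier results of these data known. In DMSO the 16 formative and primed genes summed to a median of 1645 CPM per library and the 12 naive genes to 1133 CPM. In STM2457 the medians were 1446 and 1556 CPM. Genes of both states were thus expressed in these cells. Klf4 (mean 2.78 CPM) and Prdm14 (1.31 CPM) were the lowest of the naive list. In DMSO over the chase, 10 of the 16 formative and primed genes fell and none rose, where 1038 of all 12659 genes fell and 614 rose (13.1% in all), with a median log2 change of -0.88 against 0.04 over all genes and -0.99 over the 7 tested genes of the set. Of the 12 naive genes, 4 fell and 1 rose (median -0.46). In STM2457 over the chase, 7 of the 16 fell and none rose (median -0.73), while of the naive genes none fell and 1 rose (median -0.07). Over all genes in STM2457, 384 fell and 214 rose (4.72% in all), with a median of -0.0013. Genes of both states were thus among those that fell in DMSO.

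The same lists were read between treatments. On average over the chase, 7 of the 16 formative and primed genes were lower in STM2457 and 2 were higher (median -0.17), whereas 7 of the 12 naive genes were higher and 1 was lower (median 0.48). Over all genes, 1763 were higher and 1594 lower (26.5% in all), with a median of -0.01, which TMM scaling sets near 0. Of the 7 tested genes of the set, Sall4 and Sall1 were higher and none was lower. Utf1, a chromatin protein of pluripotent cells and the most abundant of the formative and primed list, had a log2 fold change of -0.09 that did not pass, and Tdgf1, a co-receptor of Nodal signalling, was lower (-0.44, SE 0.05). The largest changes of that list that passed were those of Tcf15, a basic helix-loop-helix factor linked to priming for differentiation, which was higher (0.76, SE 0.06), and Lef1, a factor of Wnt signalling, which was lower (-0.64, SE 0.09). In the naive list, the most abundant were Klf2 (0.64, SE 0.05) and Nanog (0.36, SE 0.04), both core factors of the naive network, and the largest changes that passed were those of Nr0b1 (0.82, SE 0.07) and Zfp42 (0.69, SE 0.07), all 4 of them higher in STM2457.

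**Figure D4:**
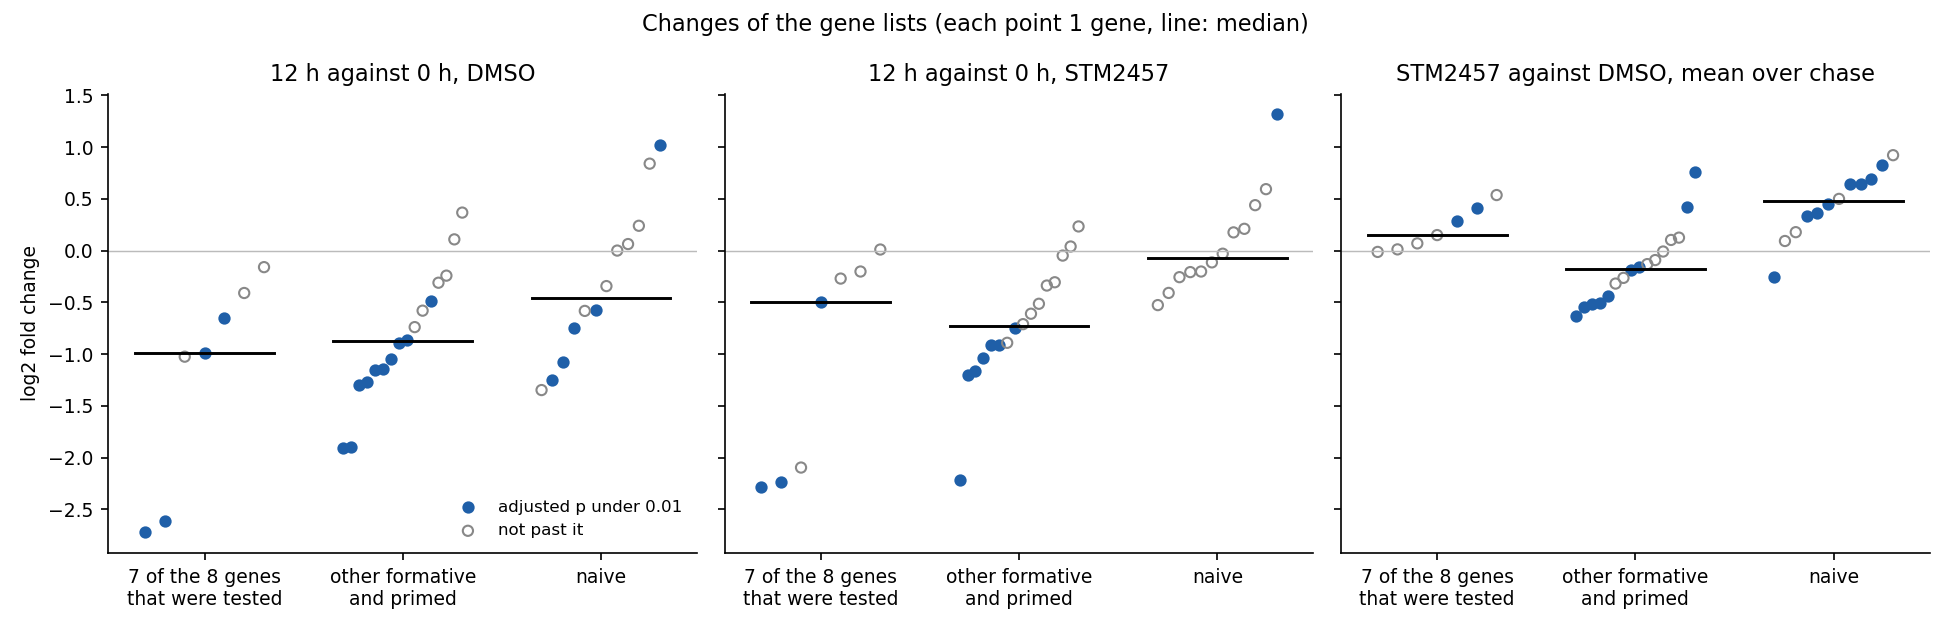
Log2 fold changes (y axis) of the 7 tested genes, 16 other formative and primed genes and 12 naive genes, for 12 h against 0 h in DMSO (left), in STM2457 (middle) and for STM2457 against DMSO over the chase (right). Each point is 1 gene, filled where edgeR's adjusted p is under 0.01, and lines are medians. The chase medians of the 7 genes are -0.99 and -0.49, and in the right panel their median is 0.15, between that of the formative and primed list (-0.17) and that of the naive list (0.48).

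The labelled cell type was checked against its markers, and those of other cells the cultures could hold were read in the same way. Of the pluripotency markers, 4 of 5 had an entry among the genes counted (Pou5f1, Nanog, Zfp42 and Esrrb). They summed to 823.6 to 1387 CPM in the DMSO libraries and 1119 to 1615 CPM in the STM2457 libraries. Most of the sum came from Pou5f1, at a mean of 814.8 CPM in DMSO and 828.4 CPM in STM2457. Nanog, Zfp42 and Esrrb are also in the naive list above. In DMSO that sum went from 1181 to 1258 CPM at 0 h to 823.6 to 912.4 CPM at 12 h, and in STM2457 from 1334 to 1446 CPM to 1125 to 1187 CPM, beside the falls of Otx2, Pou3f1 and Sall4 in both treatments. Markers of primitive endoderm (7 of 7 genes) summed to at most 14.5 CPM in any library, those of fibroblasts (4 of 4 genes) to at most 24.3 CPM and those of 2-cell-like cells (4 of 4 genes) to at most 2.55 CPM. Among these, Zscan4f had no read in any of the 71 libraries, Col3a1 none in 69, Sox7 none in 65 and Sox17 none in 51. Markers of mesoderm and primitive streak (4 of 4 genes) reached 100.2 CPM in a DMSO library, with medians of 28.2 CPM in DMSO and 24.2 CPM in STM2457, and of these T was lower in STM2457 (log2 fold change -0.44). Of the 3 neuroectoderm markers only Nes had an entry among the genes counted. It was at 18.2 CPM in DMSO and 15.3 CPM in STM2457 at the median (log2 fold change -0.34, past the test). In DMSO the primitive endoderm sum rose from 2.60 to 5.56 CPM at 0 h to 6.55 to 11 CPM at 12 h. In STM2457 the ranges overlapped, with 4.99 to 11.8 CPM at 0 h and 6.43 to 10.9 CPM at 12 h. Most of this sum came from Gata4, at a mean of 4.48 CPM, and the next highest was Foxa2 at 0.858 CPM. The part of such cells in the results above was not tested.

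Last, the genes whose pattern over the 18 groups was most like each tested gene were read, as a description, by Pearson correlation of mean log2 levels over groups that share their libraries. For Sall4 they were Zfp553 (0.966) and Dusp27 (0.961), for Sall1 Zfp518b (0.905) and Aunip (0.873), and for Otx2 Msantd2 (0.897) and Zfp985 (0.886). For Pou3f1 they were Ubald2 (0.862) and Tpt1 (0.858), for Foxd3 Tns3 (0.863) and Otud6b (0.854), and for Sall2 1110038F14Rik (0.853) and Vmac (0.825). For Fgf5, with few reads, they were Zfp790 (0.836) and Myb (0.743). None of the 8 genes was among the closest pair of another.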

How the data were processed

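SLAM-seq libraries (3′ end sequencing with s4U read as T-to-C conversions) of 71 mESC samples were used. The authors checked reads with FastQC 0.11.8 and aligned them to GRCm38.p6 with SLAM-DUNK, keeping up to 100 alignments per read, with a variant fraction of 0.2 and 3′ UTR windows filtered against GENCODE and collapsed per gene. The authors deposited, per gene and library, read counts, not normalized, and conversion rates as a fraction of covered T positions.

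Counts were tested with edgeR 4.0.16 (R 4.3.3; TMM, filterByExpr, a model of 18 group means, 12659 genes, adjusted p under 0.01). TMM was the scale of all CPM (counts per 1000000 reads); scaling by total counts moved the median gene by 0.14 (log2) over the chase in DMSO, 0.12 in STM2457 and -0.02 between treatments. Half-lives were fitted by least squares in Python 3.11.15, and their differences tested with limma 3.58.1 (adjusted p under 0.05). DESeq2 1.42.0, another scaling, no filter, fewer libraries in the fit, a replicate block, other decay settings and leaving out each replicate were the alternatives. The steps were also run on simulated data. The simulated conversion rates were higher than those of these libraries, so that run does not show how well half-lives are fitted here. In simulated series at the observed spread, limma called 16 of 100 transcripts with a 2-fold longer half-life and 69 of 100 with a 4-fold longer one. Depth was 4539726 to 7368244 reads per library, and intervals cover the spread between libraries, which the study describes as independent replicates.

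All 8 genes are named in every main comparison. From each list, the 2 genes with the highest mean level and the 2 with the largest change among those past the threshold are named, and for likeness the 2 highest correlations. Of the naive list, the 2 genes with the lowest mean level are named as well. The 8 genes and the lists were chosen with earlier results of these data known. Sox2, Sox1 and Pax6 had no entry among the genes counted and were not analysed here, so nothing is said of their levels.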

Additional observations from a re-analysis of the deposited data

Results flagged for a closer look

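A library that stood far from the other 3 of its group, by Dixon's ratio at its 95% critical value, was found in 11 of the 119 groups of 4 libraries with values of these genes, where chance gives about 1 in 20, or 5.95. Otx2 had such a library at 0 h in DMSO (replicate 1, 3.29 CPM, the others 7.30 to 8.12) and at 8 h in DMSO (replicate 2, 2.38 CPM, the others 1.24 to 1.32). Foxd3 had one at 8 h in STM2457 (replicate 1, 6.46 CPM, the others 4.36 to 4.41), and Pou3f1 had one at 8 h in DMSO (replicate 1, 1.24 CPM, the others 2.75 to 3.00). For Sall1 it was at 5.3 h in DMSO (replicate 2, 16.4 CPM, the others 18.5 to 18.9).

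Sall4 had 3 such libraries, in DMSO without s4U (replicate 1, 218.3 CPM, the others 244.2 to 248.5), in STM2457 at 0 h (replicate 3, 324.9 CPM, the others 316.2 to 317.0) and in DMSO at 1 h (replicate 3, 319.9 CPM, the others 248.0 to 259.8). Fgf5 had 3, each resting on a few reads: DMSO at 1 h (replicate 3, 0 CPM, the others 0.330 to 0.361), DMSO at 1.5 h (replicate 4, 1.45 CPM, the others 0 to 0.193) and STM2457 at 2.3 h (replicate 3, 3.13 CPM, the others 0 to 0.182).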

How the results depend on the processing

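Of the values recomputed under the alternatives, 509 were labelled the same, 29 weaker, 9 stronger, 17 reversed in sign and 5 moved by more than the spread. A value was the same if it kept its direction and its side of the threshold or stayed within the spread. A count of genes was the same within 1.5-fold of the main count, so single calls could change within the 509. Sall4 and Sall1 passed in STM2457 against DMSO over the chase, and Otx2 and Sall4 passed in both chase comparisons, under every alternative run. Between treatments, the alternatives include the sign-flip test, whose p is not adjusted over genes. For 1 to 8 h the number of genes called, 1, was 2 with DESeq2, 0 with no filter on low counts, 2 with only the libraries compared and 0 to 2 with a replicate left out. At 12 h the 2 calls were 1 with only the libraries compared and 1 to 2 with a replicate left out, and without s4U they were 1 with no filter, 0 with only the libraries compared and 0 to 2 with a replicate left out. The 4 genes with a half-life were 2 with a residual standard error limit of 0.15 (Sall1 and Sall4), 3 with coverage above 100 in every labelled library (Pou3f1 out) and 3 to 5 with a replicate left out; from reads with a conversion they were 4, with Sall2 in place of Foxd3. Half-lives of Pou3f1 were 0.858 h (DMSO) and 1.58 h (STM2457) from reads with a conversion, and 2.24 to 3.896 h (DMSO) with a replicate left out; that of Sall4 in DMSO was 3.32 h with no background subtracted, and that of Foxd3 in STM2457 was 0.986 to 4.45 h with a replicate left out. The causes were not tested. Signs turned where values were near 0. Otx2 between treatments (-0.01) was 0.0147 without 1.5 h, a choice made after seeing the data, and -0.087 to 0.064 with a replicate left out (0.064 and 0.0088 without DMSO replicates 2 and 3, 0.033 without STM2457 replicate 4). Fgf5 between treatments (0.01) was -0.0084 with total counts, -0.0017 with DESeq2 and -0.82 to 0.25 with a replicate left out (-0.09 without DMSO replicate 3, -0.21 without STM2457 replicate 4), and over the chase in DMSO (-0.16) it was 0.50 as a linear trend and -0.92 to 0.23 with a replicate left out (0.07 without DMSO replicate 3). Over the chase in STM2457, Foxd3 ran from -0.475 to 0.0785 and Sall1 from -0.25 to 0.21 with a replicate left out (-0.06 without STM2457 replicate 2).

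With the replicate number as a block, Pou3f1 between treatments passed (0.57, adjusted p = 0.00956), Sall2 over the chase in DMSO did not (-0.99, adjusted p = 0.0102), Fgf5 between treatments was -0.0171 and Sall1 over the chase in STM2457 was -0.016, and no other call changed. Same-numbered libraries did not deviate together (mean correlation 0.01 over 35 pairs, -0.08 to 0.27, 1 of them over 0.1), so the numbers were not read as pairing. Summing conversions was not run for the replicate series, which hold 1 library per time point. Depth limits Zic2 and Fgf5, at a median of 3 reads each.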
